A study of Mus musculus with 7 samples.

Results

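Perineuronal nets are lattices of extracellular matrix around the cell body and proximal dendrites of certain neurons, above all parvalbumin interneurons. The 10 matrix genes examined here were taken by symbol from the deposited count table of 35976 gene symbols: the lecticans Acan, Bcan, Ncan and Vcan, the link proteins Hapln1, Hapln2 and Hapln4, the tenascins Tnr and Tnc, and the receptor phosphatase Ptprz1. All 10 were in the table, and all 10 passed the filter on low counts that kept 14412 genes. In a net, chains of the sugar polymer hyaluronan carry lecticans, which are chondroitin sulfate proteoglycans, link proteins clamp the lecticans to hyaluronan, and tenascins crosslink the lecticans at their other end. Nets in the amygdala are known to limit the erasure of fear memories by extinction. Similar matrix without the dense lattice surrounds other neurons, synapses, nodes of Ranvier and glia, and several of the genes are made chiefly by glial cells.

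The libraries were made from amygdala cells of male C57BL/6J mice that had received an adeno-associated virus (AAV) with a guide RNA, Cas9 being driven by the neuronal hSyn (synapsin) promoter. The guide was sgRosa, a control aimed at the Rosa locus, in 4 libraries and sgNr2f2, aimed at the nuclear receptor gene Nr2f2 (COUP-TFII), in 3. After more than 2 weeks of expression all mice of both groups had 7 days of tube restraint, fear conditioning on 1 day and extinction on 3 days, so no group was unstressed, and cells were then purified with a magnetic neuron isolation kit. Whether a library is 1 animal or a pool was not stated, so p-values measure the spread between libraries, which may be technical. Cas9 under hSyn acts in neurons, whereas RNA of every cell type left in a library was counted.

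Total counts ran from 6266897 (sgRosa replicate 4) to 20928677 (sgNr2f2 replicate 3). The label neuron described the libraries only in part. All 12 neuron markers were detected in every library, at a summed 422 to 1484 CPM (counts relative to a library size scaled by the TMM method), but 12 markers of mature oligodendrocytes summed to 22964 to 408250 CPM. sgRosa replicate 4 stood apart: it held the highest neuron marker sum (1484 CPM, against 422 to 740 in the other 6), the lowest oligodendrocyte sum and an erythroid sum of 31591 CPM against 1049 to 3063, and it correlated with the rest at 0.72 on average, the rest at 0.88 to 0.90. Without it, the log2 fold changes of Bcan, Ncan, Vcan and Tnc described below were -0.04, -0.20, -0.83 and -0.60, and those of the other 6 genes are given beside their values. In this order of replicates, the counts of Nr2f2 itself were 422, 305, 166 and 96 with sgRosa and 196, 214 and 191 with sgNr2f2. Scaled to library size, these were 19.78, 16.51, 11.29 and 13.08 CPM with sgRosa and 11.87, 11.997 and 11.56 CPM with sgNr2f2. On that scale sgRosa replicate 3 lay below all sgNr2f2 libraries and the other sgRosa libraries, replicate 4 included, lay above them. The log2 fold change of Nr2f2 was -0.36 (SE 0.37, edgeR adjusted p = 0.905). Cas9 cuts can leave the amount of transcript as it was, and the labels are not checked by these counts.

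The control regions of the aggrecan and Hapln2 genes are shown because these 2 genes had their highest levels in different libraries, and because the targeted factor binds DNA. Each line gives the 250 bases before the annotated RefSeq start, 5′ to 3′ on the gene's strand, with every CG dinucleotide in capitals (build GRCm38.p6, the assembly of mm10). The Acan window lies at chr7:79052976-79053225 on the plus strand and the Hapln2 window at chr3:88027512-88027761 on the minus strand.
Acan: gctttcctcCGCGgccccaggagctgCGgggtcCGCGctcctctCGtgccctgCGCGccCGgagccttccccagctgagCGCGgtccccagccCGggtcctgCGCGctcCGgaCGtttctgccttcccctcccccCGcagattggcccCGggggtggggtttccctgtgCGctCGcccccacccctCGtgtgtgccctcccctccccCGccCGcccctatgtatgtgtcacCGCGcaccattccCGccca
Hapln2: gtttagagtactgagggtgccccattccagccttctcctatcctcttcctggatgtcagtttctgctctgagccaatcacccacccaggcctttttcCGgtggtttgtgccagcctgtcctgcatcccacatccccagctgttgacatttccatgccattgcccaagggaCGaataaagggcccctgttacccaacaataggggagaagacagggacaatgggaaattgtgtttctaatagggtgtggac
The Acan window held 26 CG dinucleotides, more than 90.4% of 32851 RefSeq promoter windows of that length, and was 74.4% G and C. The Hapln2 window held 2 CG dinucleotides (18.8% of windows held fewer) and was 52.4% G and C. CG dinucleotides were present in 92.1% of all windows, with a median of 6. The nuclear receptor motif AGGTCA, searched on both strands, was in 14.02% of all windows and in 0 of the 10 windows of the 9 matrix genes that the table holds (all but Hapln4). A window without these letters says nothing about binding of the factor elsewhere.

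The comparison asks whether the matrix transcripts differ between the guides after restraint, conditioning and extinction, which both groups had. None of the 10 passed edgeR's quasi-likelihood test with Benjamini-Hochberg adjustment over all genes (0 higher and 0 lower), and 0% of the 14412 genes tested passed. The smallest adjusted p among the 10 was 0.868. At an unadjusted p under 0.05 there were 2 of the 10, Ptprz1 and Hapln4, both lower, against 2.82% of all genes in that direction. DESeq2 called 0 of the 10 (0.0499% of all genes in either direction) and limma-voom 0. DESeq2 also called 0 of the 10 without sgRosa replicate 4, where it called 2.64% of all genes.

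Of the 10 genes 9 had log2 fold changes below 0 and 1 above 0, against 56.2% and 43.8% of all genes, and their median was -0.59 against -0.11 for all genes. Without sgRosa replicate 4 the count below 0 was 8 of 10 against 52.5% of all genes, and the median was -0.71. The count moved with single libraries, since 5 of the genes changed sign in some fits that left 1 out: it was 6 without sgRosa replicate 1 or sgNr2f2 replicate 2, and 10 without sgNr2f2 replicate 1. Libraries of 1 group differed widely for several of the genes. Within sgRosa alone the highest library exceeded the lowest 11.3-fold for Hapln4, 9.87-fold for Acan and 7.13-fold for Hapln2, and 1.49-fold for Ptprz1, which varied least.

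**Figure D1:**
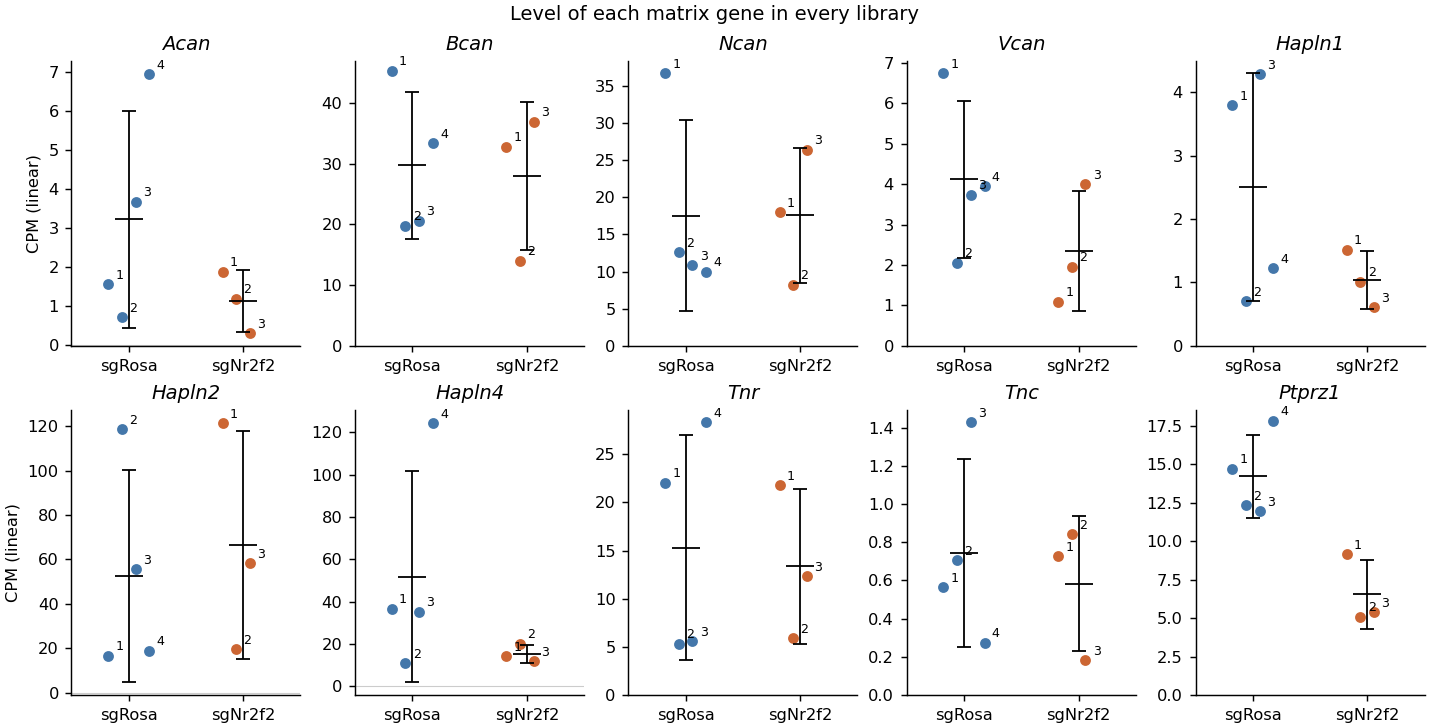
Level of each of the 10 genes (vertical axis, CPM on a linear scale) in the 4 sgRosa libraries (blue) and the 3 sgNr2f2 libraries (orange); numbers are replicates, and black bars are the mean with the SD. The groups overlap for every gene except Ptprz1, whose sgNr2f2 libraries (5.10 to 9.15 CPM) all lie below the sgRosa libraries (11.97 to 17.9 CPM).

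**Figure D2:**
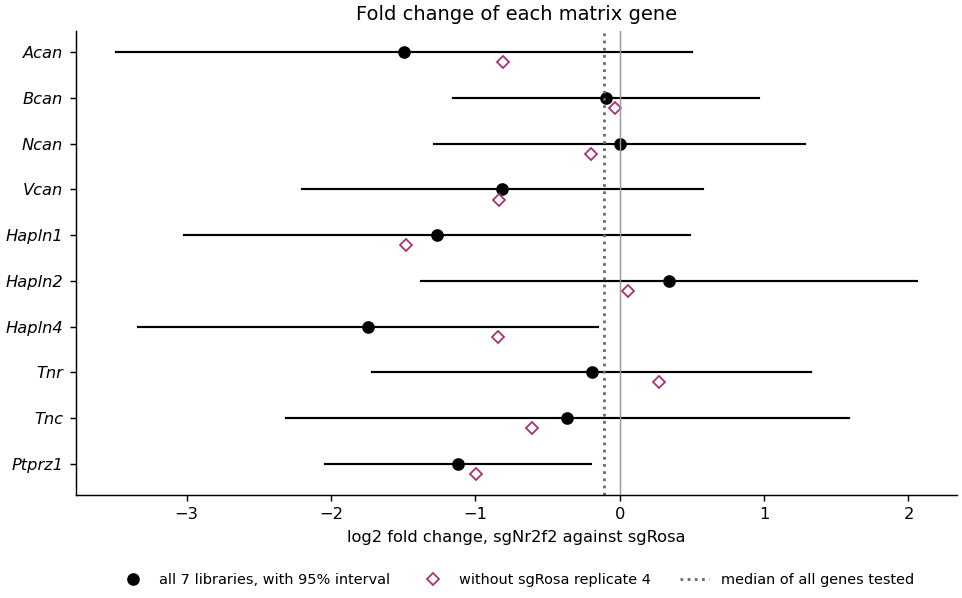
Log2 fold change of sgNr2f2 against sgRosa (horizontal axis) for each gene, with all 7 libraries (black points, with 95% confidence intervals) and without sgRosa replicate 4 (open diamonds); the dotted line is the median of all genes tested, -0.11. The intervals of Hapln4 and Ptprz1 alone stay below 0, and leaving out sgRosa replicate 4 moves Hapln4 from -1.74 to -0.84 but Ptprz1 only from -1.12 to -0.99.

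Per length the link protein Hapln2 had the highest median level of the 10 transcripts and Tnc the lowest. Levels between genes are given as RPKM, that is CPM divided by the exon length in kb, with lengths from GENCODE M21. The length takes in every annotated exon of a gene. Which exons were in use was not measured, so genes with unused exons read too low. Over the 7 libraries Hapln2 had a median of 23.5 RPKM, Bcan 8.08 RPKM, Hapln4 5.13 RPKM and Ncan 1.75 RPKM. Below 1 RPKM lay Tnr at 0.960, Ptprz1 at 0.840, Vcan at 0.259, Hapln1 at 0.208, Acan at 0.207 and Tnc at 0.0906 RPKM, in medians. Each gene's range over the libraries overlapped that of its neighbour in this order, so the order of neighbours is not firm. Hapln2 itself lay below Bcan and Hapln4 in sgRosa replicate 1 (7.02 against 11.2 and 9.34 RPKM) and in sgRosa replicate 4 (7.93 against 8.22 and 31.7 RPKM), and Tnc lay above Vcan in sgNr2f2 replicate 1. Acan, the core proteoglycan of classical nets, was thus a rare transcript here, at 5 to 54 counts per library.

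Among the lecticans, the 2 abundant members lay at nearly equal group means and the 2 rare ones lay lower in sgNr2f2 without passing the test. Bcan (brevican, a small lectican of the brain; chromosome 3, 87987531 to 88002175) had 45.3, 19.8, 20.6 and 33.4 CPM in the sgRosa libraries (replicates 1 to 4, the order kept below) and 32.8, 14.02 and 36.9 CPM in the sgNr2f2 libraries (replicates 1 to 3). The ranges of the groups overlapped, and the lowest and the next highest library were both sgNr2f2 libraries. Its means were 29.8 ± 12.1 CPM (SD, n = 4) and 27.9 ± 12.2 CPM (n = 3), with a log2 fold change of -0.09 (SE 0.48, 95% interval -1.15 to 0.97, edgeR adjusted p = 0.984). The interval leaves room for differences of up to about 1 log2 unit in either direction.

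Ncan (neurocan, a lectican of developing and mature brain; chromosome 8, 70093085 to 70120863) had 36.7, 12.6, 10.8 and 9.95 CPM in sgRosa and 17.99, 8.24 and 26.4 CPM in sgNr2f2. Its sgRosa mean rested on replicate 1, and sgNr2f2 replicate 3 was the next highest library. The means were 17.5 ± 12.8 CPM (n = 4) and 17.5 ± 9.08 CPM (n = 3), with a log2 fold change of -0.0015 (SE 0.58, 95% interval -1.29 to 1.28). Left without sgRosa replicate 1, Ncan had a log2 fold change of 0.65 (edgeR adjusted p = 0.872).

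Acan (aggrecan; chromosome 7, 79053226 to 79115099) had 33, 13, 54 and 51 counts in sgRosa, or 1.55, 0.704, 3.67 and 6.95 CPM, and 31, 21 and 5 counts in sgNr2f2, or 1.88, 1.18 and 0.303 CPM. The sgRosa libraries spread on both sides of sgNr2f2, with replicates 3 and 4 above all 3 sgNr2f2 libraries and replicate 2 below 2 of them. The log2 fold change was -1.49 (SE 0.90, 95% interval -3.49 to 0.50, edgeR adjusted p = 0.868) and -0.81 without sgRosa replicate 4. Vcan (versican, a large lectican of precursor cells and vessels as well as of neural matrix; chromosome 13, 89655309 to 89743027) had 6.75, 2.06, 3.74 and 3.95 CPM in sgRosa and 1.09, 1.96 and 4.00 CPM in sgNr2f2. All sgRosa libraries exceeded 2 of the 3 sgNr2f2 libraries, but sgNr2f2 replicate 3 lay among them. The log2 fold change of Vcan was -0.81 (SE 0.63, edgeR adjusted p = 0.877), and -1.43 without sgNr2f2 replicate 3.

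Bcan made up most of the lectican transcripts in every library, and the shares of the rare members varied widely. Per length, Bcan took 65.9 to 76.1% of lectican transcripts in the sgRosa libraries and 69.5 to 74.1% in sgNr2f2. Such shares do not depend on library scaling but do depend on the exon lengths used. Ncan took 12.8 to 30.1% and 22.9 to 28.1%, with the lowest share in sgRosa replicate 4. Acan took 1.22 to 8.61% and 0.310 to 3.23%. Vcan took 2.08 to 3.53% and 0.691 to 2.78%. The groups overlapped in all 4 shares.

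The 3 link protein genes went separate ways across the libraries. Hapln2 (Bral1, a link protein of nodes of Ranvier on myelinated axons; chromosome 3, 88020558 to 88027511), whose CG-poor control region is printed above, had 16.6, 118.6, 55.6 and 18.8 CPM in sgRosa and 121.4, 19.6 and 58.2 CPM in sgNr2f2. Each group held a library near 120 CPM and at least 1 below 20 CPM, so the groups overlapped over almost their whole range. The means were 52.4 ± 47.6 CPM (n = 4) and 66.4 ± 51.4 CPM (n = 3), with a log2 fold change of 0.34 (SE 0.77, 95% interval -1.38 to 2.06, edgeR adjusted p = 0.957). It was 0.06 without sgRosa replicate 4, 1.16 without sgRosa replicate 2 and -0.43 without sgNr2f2 replicate 1.

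The oligodendrocyte marker sum was low in the libraries where Hapln2 was low. It was 97838, 315760, 346750 and 22964 CPM with sgRosa and 326930, 165890 and 408250 CPM with sgNr2f2. The 3 libraries with the lowest sums, sgRosa replicates 1 and 4 and sgNr2f2 replicate 2, were also the 3 lowest in Hapln2. Among the other 4 the sum and Hapln2 did not run together. The 2 higher sums, in sgNr2f2 replicate 3 and sgRosa replicate 3, went with 58.2 and 55.6 CPM of Hapln2. The lower ones went with 121.4 and 118.6 CPM. Mbp and Mobp made up most of the sum, at 254140 and 51584 CPM in sgNr2f2 replicate 1. Single markers differed, 7 of the 12 being highest in sgNr2f2 replicate 1, 3 in sgNr2f2 replicate 3 and 2 in sgRosa replicate 2. Of the 12 markers of that list 11 had log2 fold changes above 0, with a median of 0.52 that was 0.16 without sgRosa replicate 4, and none was at 0 in any library. The part of oligodendrocyte content in the Hapln2 values was not tested. In bulk libraries a smaller number of cells of a type and less RNA per cell cannot be told apart.

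Hapln4 (Bral2, a link protein of perisynaptic matrix and nets; chromosome 8, 70083529 to 70090862) had 36.7, 10.99, 35.2 and 124.3 CPM in sgRosa and 14.2, 20.1 and 11.99 CPM in sgNr2f2. Replicate 4 was by far the highest, sgRosa replicates 1 and 3 also lay above all sgNr2f2 libraries, and sgRosa replicate 2 lay below them. The means were 51.8 ± 49.7 CPM (n = 4) and 15.4 ± 4.21 CPM (n = 3), with a log2 fold change of -1.74 (SE 0.72, 95% interval -3.34 to -0.15, unadjusted p = 0.0348, edgeR adjusted p = 0.868). With replicate 4 left out, sgRosa averaged 27.6 ± 14.4 CPM and the log2 fold change was -0.84 (SE 0.44, edgeR adjusted p = 0.521).

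The summed neuron markers were highest in sgRosa replicate 4, as Hapln4 and Acan were, but single markers differed. The neuron sum was 740.4, 421.8, 684.6 and 1484 CPM in sgRosa and 591.7, 463.8 and 552.1 CPM in sgNr2f2, and the sum of 8 parvalbumin interneuron markers was 105.5, 80.5, 166.1 and 378.7 CPM against 120.0, 104.5 and 109.3 CPM. Both sums, Acan and Hapln4 were each highest in sgRosa replicate 4, and both sums and Hapln4 were lowest in sgRosa replicate 2. Of the 12 neuron markers 9 were highest in sgRosa replicate 4, the most abundant there being Syt1 at 557.65 CPM. Snap25, at 36.9 CPM against 127.7 to 205.7 CPM elsewhere, and Gad1, at 4.50 CPM against 10.05 to 18.3 CPM, were instead lowest there, and Slc17a7 was highest in sgRosa replicate 1. Of the 8 parvalbumin markers 7 were highest in sgRosa replicate 4, all but Kcnc2. None of these markers was at 0 in any library, and Pvalb, which encodes parvalbumin, had 14.8, 26.2, 44.6 and 64.5 CPM in sgRosa and 22.7, 16.7 and 36.1 CPM in sgNr2f2. Of the neuron list 10 of 12 markers had log2 fold changes below 0 (median -0.67, and -0.15 with 7 of 12 without sgRosa replicate 4), and of the parvalbumin list 7 of 8 (median -0.66, and -0.05 with 4 of 8). Their part in the Hapln4 and Acan values was not tested.

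**Figure D3:**
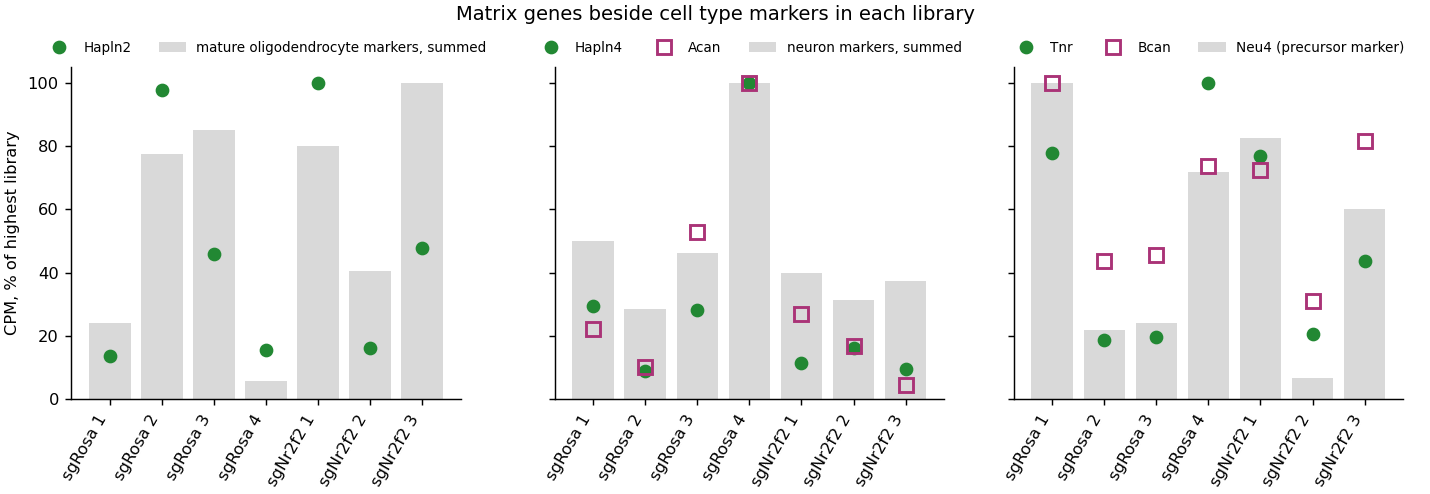
Matrix genes (symbols) and cell type markers (grey bars) in each library, each as a percentage of its own highest library in CPM. Hapln2 is low in the 3 libraries with the lowest oligodendrocyte marker sum (22964 to 165890 CPM), Hapln4 and Acan peak with the neuron marker sum in sgRosa replicate 4 (9 of its 12 markers peak there, and Snap25 and Gad1 are lowest there), and Tnr and Bcan are low in the 3 libraries where Neu4 is below 3 CPM, 1 precursor marker picked after its values were seen, which the sum of its list does not follow.

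Hapln1 (cartilage link protein 1, the link protein of classical nets; chromosome 13, 89540529 to 89611832) was rare. It had 81, 13, 63 and 9 counts in sgRosa, or 3.797, 0.704, 4.29 and 1.23 CPM, and 25, 18 and 10 counts in sgNr2f2, or 1.51, 1.01 and 0.605 CPM. sgRosa replicates 1 and 3 were the high libraries, while replicates 2 and 4 lay within the sgNr2f2 range. Its log2 fold change was -1.27 (SE 0.79, 95% interval -3.02 to 0.49, edgeR adjusted p = 0.868), and -1.48 without sgRosa replicate 4. Unlike Hapln4 and Acan, Hapln1 was not high in sgRosa replicate 4.

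Each link protein gene sits beside a lectican gene in the genome, and the neighbours did not keep a fixed ratio. Hapln2 lies 18.4 kb from Bcan on the same strand, Hapln4 lies 2.22 kb from Ncan on the opposite strand, Hapln1 lies 43.5 kb from Vcan on the opposite strand, and Hapln3, outside the 10 genes, lies 1.93 kb from Acan. Within a library the ratio of counts is free of library scaling. The count of Hapln2 was 0.367, 6.00, 2.70 and 0.563 times that of Bcan in sgRosa and 3.70, 1.40 and 1.58 times in sgNr2f2. The count of Hapln4 was 0.999, 0.875, 3.26 and 12.5 times that of Ncan in sgRosa and 0.788, 2.44 and 0.454 times in sgNr2f2. Ratios thus differed more than 10-fold among sgRosa libraries for both pairs. On the log2 scale and per length, the Hapln2 to Bcan ratio was 1.21 ± 1.89 (n = 4) and 1.79 ± 0.76 (n = 3), and the Hapln4 to Ncan ratio 2.16 ± 1.79 and 0.81 ± 1.24. The groups overlapped in all 4 ratios.

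**Figure D4:**
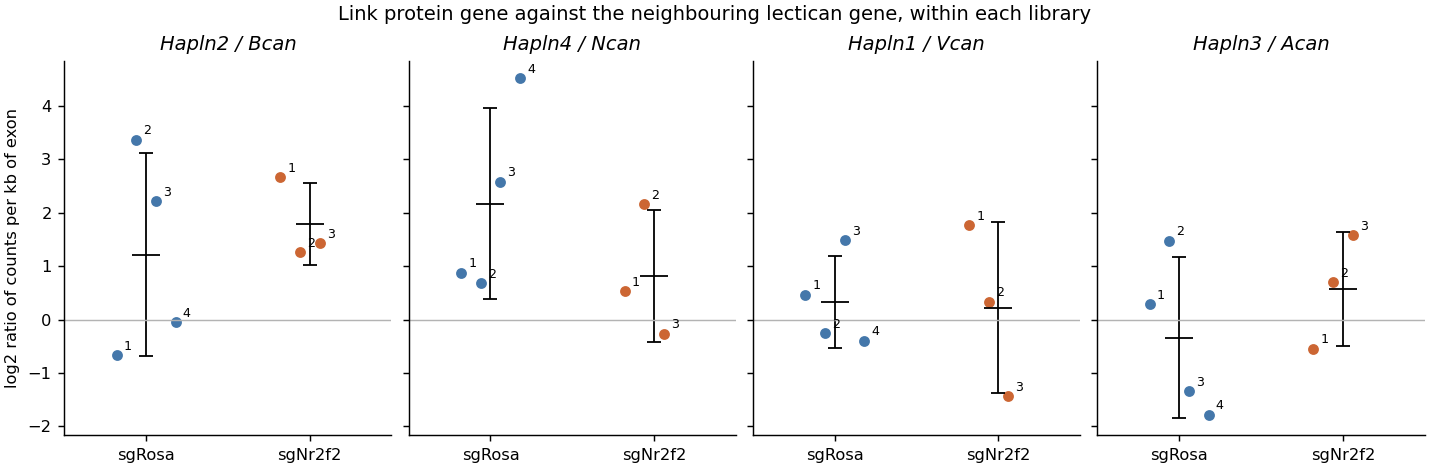
Log2 ratio of counts per kb of exon, link protein gene over neighbouring lectican gene (vertical axis), in each sgRosa (blue) and sgNr2f2 (orange) library, with replicate numbers and the mean with the SD. Ratios spread widely within groups, the Hapln4 to Ncan ratio reaching 4.52 in sgRosa replicate 4, and the groups overlap in every panel.

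The tenascins showed no difference larger than the spread between libraries. Tnr (tenascin-R, made by oligodendrocytes and some interneurons and a crosslinker of lecticans; chromosome 1, 159523729 to 159931729) had 22.03, 5.31, 5.58 and 28.3 CPM in sgRosa and 21.8, 5.89 and 12.3 CPM in sgNr2f2. Libraries above 20 CPM and libraries below 6 CPM occurred in both groups. Its log2 fold change was -0.19 (SE 0.68, 95% interval -1.71 to 1.33, edgeR adjusted p = 0.971) and turned to 0.27 without sgRosa replicate 4. Tnc (tenascin-C, a developmental and injury-associated tenascin; chromosome 4, 63959785 to 64047015) had 12, 13, 21 and 2 counts in sgRosa and 12, 15 and 3 counts in sgNr2f2. At 3 counts its level of 0.182 CPM in sgNr2f2 replicate 3 had a 95% exact Poisson interval of 0.0374 to 0.531 CPM, which covers counting error only, since PCR reads without molecular identifiers are not independent molecules. The log2 fold change of Tnc was -0.36 (SE 0.88, edgeR adjusted p = 0.960), and 0.17 without sgRosa replicate 3.

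Tnr and Bcan had low values in the same 3 libraries, sgRosa replicates 2 and 3 and sgNr2f2 replicate 2. Neu4, a sialidase gene of the oligodendrocyte precursor list that was picked out after its values were seen, had 9.89, 2.17, 2.38 and 7.09 CPM in sgRosa and 8.18, 0.673 and 5.93 CPM in sgNr2f2, and was low in those libraries too. The whole list of 10 precursor markers summed to 163.8, 266.2, 202.2 and 145.4 CPM and 361.3, 85.7 and 299.9 CPM, 5 of the 10 had log2 fold changes below 0, and none was at 0 in any library. The sum of the list did not follow Neu4, since it was not low in sgRosa replicate 2 or 3. The rarer markers weigh little in that sum. In sgRosa replicate 2 most of it came from Olig1 (176.9 CPM), Sox10 and Olig2. Without Olig1, the most abundant gene of the list, the other 9 summed to 78.6, 89.3, 64.7 and 70.5 CPM and 133.8, 41.04 and 100.2 CPM, with sgRosa replicate 3 but not replicate 2 low in its group. In sgRosa replicate 2 Pdgfra, a receptor gene of the list, had its highest level, at 4.49 CPM. Olig2 and Sox10 lay there at 23.8 and 39.7 CPM, above all other sgRosa libraries. The part of precursors in the Tnr and Bcan values was not tested.

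Ptprz1 was the 1 gene of the 10 whose groups did not overlap. It encodes a receptor tyrosine phosphatase that carries chondroitin sulfate, binds tenascin-R, pleiotrophin and contactin-1, and is also released as the soluble proteoglycan phosphacan. Ptprz1 (chromosome 6, 22875315 to 23052916) had 314, 228, 176 and 131 counts in sgRosa and 151, 91 and 89 counts in sgNr2f2. These came to 14.7, 12.3, 11.97 and 17.9 CPM and 9.15, 5.10 and 5.39 CPM, so every sgNr2f2 library lay below every sgRosa library. Non-overlap in that direction was seen for 1 of the 10 genes and for 3.9% of all genes tested. The means were 14.2 ± 2.71 CPM (n = 4) and 6.54 ± 2.26 CPM (n = 3).

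The log2 fold change of Ptprz1 was -1.12 (SE 0.42, 95% interval -2.04 to -0.20, unadjusted p = 0.0221) and did not pass the adjusted threshold (edgeR adjusted p = 0.868), with rank 298 by p among the 14412 genes. Over the 7 fits that each left out 1 library it ran from -1.44 (without sgNr2f2 replicate 1) to -0.96 (without sgNr2f2 replicate 2), and the smallest adjusted p among them, 0.306, was that without sgRosa replicate 4. Astrocytes and oligodendrocyte precursors express Ptprz1. Of 12 astrocyte markers 8 had log2 fold changes below 0 (median -0.66, and -0.82 with 10 of 12 without sgRosa replicate 4). None of them was at 0 in any library. Their sum, in which S100b weighs most, overlapped between the groups, at 505.9 to 2554 CPM with sgRosa and 1071 to 1812 CPM with sgNr2f2. The sum of the precursor list, in which Olig1 weighs most, overlapped as well, at 145.4 to 266.2 CPM and 85.7 to 361.3 CPM. The part of both cell types in the Ptprz1 values was not tested.

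The direction of the fold change went with level in this comparison. Of 4445 genes tested at a mean of 0.5 to 5 CPM over the 7 libraries, 66.3% had log2 fold changes below 0, with a median of -0.33. Acan, Vcan, Hapln1 and Tnc fall in that class, and their values of -0.36 to -1.49 are to be read beside that median. The median was -0.07 for 7398 genes at 5 to 50 CPM, the class of Bcan, Ncan, Tnr, Hapln4 and Ptprz1, and 0.14 for 2424 genes above, the class of Hapln2. Every sgNr2f2 library also detected fewer genes than every sgRosa library. Genes with a count above 0 numbered 19790, 19916, 18675 and 18644 with sgRosa and 16364, 17572 and 17532 with sgNr2f2. The part of this difference in the values of the rare genes was not tested.

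The other genes of the matrix pathway were followed in 5 lists of 88 genes, of which 73 passed the filter on low counts. None passed edgeR's adjusted test (smallest adjusted p = 0.868) and 6 had an unadjusted p under 0.05, 2 higher (2.74%, against 2.18% of all genes) and 4 lower (5.48%, against 2.82%). Log2 fold changes were above 0 for 25 and below 0 for 48 (65.8%, against 56.2% of all genes), with a median of -0.36. Groups did not overlap for 3 on the higher side (4.11%, against 4.41% of all genes) and 4 on the lower side (5.48%, against 3.9%). The former were Hyal2, Timp3 and Plat and the latter Serpini1, Adamts5, Serpine2 and Nrcam, of which Plat and Serpine2 are named only for this and were picked after their values were seen. The shares without overlap were thus near those of all genes.

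Of the genes that make hyaluronan, the backbone of nets, the synthases could not be tested. The synthase genes Has1, Has2 and Has3 were each at 0 counts in at least 1 library and did not pass the filter. Of the 5 genes of this list that did, 3 lay higher and 2 lower (median 0.33). Ugdh, whose enzyme makes a sugar precursor of hyaluronan and of chondroitin chains, had 67 to 421 counts and a log2 fold change of 0.33, which was 0.15 without sgRosa replicate 4. Hyal2, a hyaluronidase anchored at the cell surface, had 34.0, 23.4, 32.5 and 26.0 CPM in sgRosa and 46.9, 127.9 and 75.5 CPM in sgNr2f2. All 3 sgNr2f2 libraries exceeded all sgRosa libraries, with a log2 fold change of 1.52 (SE 0.44, unadjusted p = 0.00553, edgeR adjusted p = 0.868), and 1.47 without sgRosa replicate 4. The lysosomal hyaluronidase Hyal1 had a log2 fold change of 0.57 and the hyaluronan receptor Cd44 -1.29. Hyal3 lay at -0.40 and turned to 0.40 without sgRosa replicate 4, which had 3.41 CPM against 0.650 to 0.984 CPM in the other sgRosa libraries.

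Of 18 genes for synthesis and sulfation of chondroitin chains 5 lay higher and 13 lower (median -0.35). Chst14, which sulfates dermatan chains, lay at 5.34, 4.28, 2.18 and 0.273 CPM in sgRosa and at 0, 1.07 and 0.303 CPM in sgNr2f2. Its low sgRosa replicate 4 overlapped sgNr2f2, and the log2 fold change was -2.71 (SE 1.21, edgeR adjusted p = 0.868). The log2 fold change of the chondroitin sulfotransferase gene Chst12 was -1.67, but its sgRosa replicate 4 had 63.6 CPM against 7.41 to 13.0 CPM in the other 3, and the value was -0.49 without that library. Chst11 lay at 0.42 and Chst7 at 0.79, the latter with 0 counts in sgNr2f2 replicate 3 and a value of 1.37 without sgRosa replicate 4.

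Among 18 tested proteases and inhibitors 7 lay higher and 11 lower (median -0.46, and -0.16 without sgRosa replicate 4). Timp3, which encodes an inhibitor of metalloproteinases and of lectican-cleaving ADAMTS enzymes, had 803.4, 669.4, 1280 and 418.6 CPM in sgRosa and 1458, 3893 and 1759 CPM in sgNr2f2, without overlap (log2 fold change 1.58, SE 0.60, unadjusted p = 0.0251, edgeR adjusted p = 0.868). Adamts5, a lectican-cleaving protease, ran from 1.36 to 2.22 CPM with sgRosa and from 0.363 to 0.847 CPM with sgNr2f2, also without overlap. It rested on few counts, 29, 41, 31 and 13 with sgRosa and 6, 15 and 14 with sgNr2f2. Its log2 fold change was -1.44 (SE 0.68, unadjusted p = 0.0615, edgeR adjusted p = 0.868). Adamts9 had a log2 fold change of 1.16, and 1.91 without sgRosa replicate 4. Serpini1, the gene of neuroserpin, which inhibits tissue plasminogen activator, ran from 24.2 to 78.6 CPM with sgRosa and from 11.8 to 19.1 CPM with sgNr2f2 (log2 fold change -1.42, SE 0.49, unadjusted p = 0.0154). The endothelial marker sum is given beside Timp3 and Hyal2 because all were highest in sgNr2f2 replicate 2. This sum was 4361, 1879, 2555 and 3731 CPM with sgRosa and 2139, 4776 and 2382 CPM with sgNr2f2. In sgRosa replicate 1, with the next highest sum, Timp3 and Hyal2 lay at 803.4 and 34.0 CPM, against 3893 and 127.9 CPM in sgNr2f2 replicate 2. Of the 7 endothelial markers 3 were highest in sgNr2f2 replicate 2, 2 in sgRosa replicate 1 and 2 in sgRosa replicate 4, and none was at 0. The part of endothelial content in the Timp3 and Hyal2 values was not tested.

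Of 17 receptors and ligands of nets 6 lay higher and 11 lower (median -0.32). The cell adhesion gene Nrcam had 89.1, 31.8, 36.0 and 99.6 CPM in sgRosa and 29.6, 22.4 and 29.1 CPM in sgNr2f2, without overlap but with sgRosa replicates 2 and 3 close to the highest sgNr2f2 library (log2 fold change -1.24, SE 0.51, edgeR adjusted p = 0.868). Nptx1, a neuronal pentraxin that gathers glutamate receptors at synapses, had a log2 fold change of -1.71, with 3.90 CPM in sgRosa replicate 2 against 18.2 to 47.2 CPM in the other 3 and 5.51 to 10.3 CPM in sgNr2f2. Nfasc, whose neurofascin is found at nodes and axon initial segments, lay at 0.39 and the homeobox gene Otx2 at 1.13, at a mean of 0.643 and 1.45 CPM. Of 15 other matrix proteoglycans and glycoproteins 4 lay higher, led by the heparan sulfate proteoglycan genes Agrn (0.73) and Hspg2 (0.58), and 11 lower, led by Spock1 (-0.77) and Matn4 (-0.92). Without sgRosa replicate 4 Hspg2 was at 0.94, Spock1 at -0.20 and Matn4 at -0.47.

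**Figure D5:**
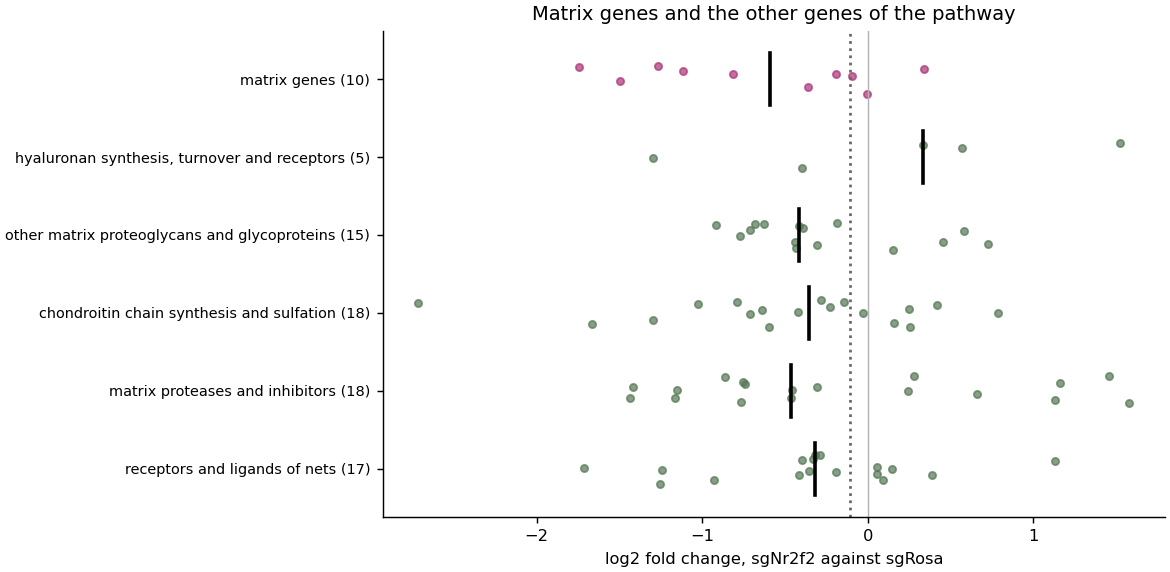
Log2 fold change of sgNr2f2 against sgRosa (horizontal axis) for the 10 matrix genes (purple) and the tested genes of 5 pathway lists (green), 1 point per gene, number of genes in brackets; black bars are medians, and the dotted line is the median of all genes tested. Medians run from -0.59 for the 10 genes to 0.33 for the hyaluronan list, and the points of every list lie on both sides of 0.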

How the data were processed

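Raw, whole-number counts by gene symbol were deposited, with no normalization, in 1 table and in 7 single-library files that held the same values. The submitters' processing notes name fastp 0.23.2, STAR 2.7.5c, featureCounts 2.0.1, edgeR 3.42.4 and mm10. Annotation, strand setting and multimapping are not stated there, so overlapping genes can share reads.

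Samples were grouped by the guide in their titles. Counts were tested with edgeR 4.0.16 (R 4.3.3; TMM factors, filterByExpr, quasi-likelihood F test, group only), adjusted over all 14412 genes tested, threshold 0.05. CPM used TMM-scaled library sizes, 7337943 to 21331624, where 3 counts correspond to 0.141 to 0.409 CPM. RPKM used union exon lengths of GENCODE M21 (GRCm38). Coordinates and promoter windows come from RefSeq GRCm38.p6.

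Alternatives were other scalings, no filter, DESeq2 1.42.0, limma 3.58.1 voom with and without quality weights, the replicate block and leaving out each library. The fits were tested on simulated data. The members and gene lists were chosen with earlier results of these data known. From each pathway list the text names up to 2 tested genes per direction with the smallest p. Named outside this rule are Ugdh, the untested synthase genes, Hapln3, Plat and Serpine2. The replicate numbers are not said to pair the libraries, so the main fit used no block.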

Additional observations from a re-analysis of the deposited data

Results flagged for a closer look

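Of the 10 matrix genes and Nr2f2, screened over the 4 sgRosa libraries, 1 had a library far from the others. Ncan lay at 36.7 CPM in sgRosa replicate 1 and at 9.95 to 12.6 CPM in the other 3, a gap that was 0.902 of the whole range and above Dixon's 95% critical value. The screen used CPM on a linear scale and was not repeated on log2 values, so the flag holds for that scale only. Chance flags about 1 in 20 groups, and 11 were screened. The 3 sgNr2f2 libraries were not screened.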

How the results depend on the processing

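edgeR called 0 genes in every scaling, filter, block and leave-one-out fit, and limma-voom called 0 with and without quality weights. DESeq2 called 2 genes higher and 5 lower, and 256 higher and 116 lower without sgRosa replicate 4, an alternative chosen after seeing the data. The cause of this difference between tools was not tested. None of the 10 matrix genes was called in any of the 18 fits. Acan, Vcan, Hapln1, Hapln4 and Ptprz1 kept a log2 fold change below 0 in all of them. The other 5 turned in some. Bcan was 0.46 with quality weights, 0.18 without sgRosa replicate 1, and ran from -0.34 to 0.23 over the fits that left out 1 library, the latter without sgNr2f2 replicate 2. Ncan was 0.00063 with DESeq2, 0.032 with limma-voom, 0.58 with quality weights, 0.34 without sgNr2f2 replicate 2, and from -0.42 to 0.65 over those fits. Hapln2 was -0.067 with quality weights and from -0.43 (without sgNr2f2 replicate 1) to 1.16. Tnc ran from -0.72 to 0.17 and was 0.07 without sgNr2f2 replicate 3. Tnr was 0.058 with limma-voom, -0.76 without sgNr2f2 replicate 1, 0.92 with quality weights, 0.03 without sgRosa replicate 1, 0.17 without sgNr2f2 replicate 2, and 0.27 with edgeR, 0.31 with DESeq2 and 0.34 with limma-voom without sgRosa replicate 4. The replicate numbers shared by the groups are not said to mark a common animal or day. Deviations of same-numbered libraries correlated at -0.20, -0.26 and 0.09. With the replicate block edgeR again called 0 genes, Tnr was 0.42, Hapln4 -0.72 and Ptprz1 -1.03. Scaling by library size alone moved the median of all genes from -0.11 to -0.33 and that of the 10 genes from -0.59 to -0.90. Depth limits Tnc, Hapln1 and Acan most, with as few as 2, 9 and 5 counts in a library.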

Other observations

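The vesicular glutamate transporter gene Slc17a7, a marker of excitatory neurons in cortex-like amygdala nuclei that was picked out after its values were seen, had 23.4, 2.06, 0.748 and 7.50 CPM in sgRosa replicates 1 to 4 and 8.60, 0.280 and 21.2 CPM in sgNr2f2 replicates 1 to 3. The 3 libraries with the most Ncan, sgRosa replicate 1 and sgNr2f2 replicates 3 and 1, were also those with the most Slc17a7. The other vesicular glutamate transporter gene of the neuron list, Slc17a6, was highest in sgRosa replicate 4, at 138.5 CPM, where Ncan was at 9.95 CPM. The sum of the whole neuron list was highest there as well, at 1484 CPM. It was next highest in sgRosa replicate 1, at 740.4 CPM, and then in sgRosa replicate 3, at 684.6 CPM, where Ncan was at 10.8 CPM.

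Of the 10 matrix genes, 4 (Acan, Hapln4, Tnr and Ptprz1) had their highest level in sgRosa replicate 4, 3 (Bcan, Ncan and Vcan) in sgRosa replicate 1, 2 (Hapln1 and Tnc) in sgRosa replicate 3 and 1 (Hapln2) in sgNr2f2 replicate 1. The level of Acan differed 22.96-fold between its highest and lowest library, more than for 86.9% of genes tested, and that of Bcan 3.23-fold, more than for 28.6%, around a median of 5.06-fold.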
